A study of Homo sapiens with 4 samples.

Results

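The genes of histone variants made outside S phase were followed in H9, a human embryonic stem cell line kept in the primed state: H1-10, H2AX, H2AZ1, H2AZ2, H3-3A, H3-3B and MACROH2A1. They were chosen by name, and all 7 members were present among the 16174 genes of the deposited table. All cells held a piggyBac-delivered TetO construct for dCas9-BFP-KRAB, which joins a Cas9 that cannot cut to a repressor domain and a blue fluorescent protein, and were selected as pools with puromycin. One arm had 4 pooled guides against the long non-coding RNA gene SNHG26, and the other had non-targeting control guides. Both arms received doxycycline at 1 µg/mL for 2 or 3 days, with 1 library per arm and day, so each arm had 2 libraries that differed in day and no arm was without doxycycline. The labels do not say whether the 4 libraries came from separate cultures, so the p-values measure only the spread between these libraries, which may be technical. Each mean ± SD is over n = 2 libraries of different days, so the SD also holds any change with time.

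Most histone protein is made while DNA is copied, from clustered genes without introns whose mRNAs end in a stem-loop in place of a poly(A) tail. Variant histones are made throughout the cell cycle, mostly from polyadenylated mRNAs, and replace the standard histones at particular places: H3.3 at active genes, enhancers and telomeres, and H2A.Z around transcription start sites. H2AX carries the residue that is phosphorylated around DNA breaks, macroH2A has a large extra domain and is found on silent chromatin, and H1-10 is a linker histone. In bulk RNA a change in the RNA per cell and a change in the mix of cells cannot be told apart.

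The ends of the mRNAs are shown first, because the libraries were primed with oligo-dT and so took polyadenylated RNA. In the GENCODE release 29 reference transcripts, a poly(A) signal (AATAAA or ATTAAA, searched on the transcript strand in the last 50 bases) was found in 5 of the 7 variant genes. It was found in 28.1% of 57 replication-dependent histone genes and in 77.4% of 13507 other protein-coding genes. The windows around the signal, in capitals, of the 2 genes with the highest level, the gene listed at 0 and the gene with the largest guide difference read
H2AZ1: gtggataagttcAATAAAggtcatatccca
H3-3B: ggatgagactaaAATAAAatttttgaagtt
H1-10: ttttttgggcacAATAAAgcgtttaaacct
H2AX: tggactaattttATTAAAggattgtttttt
The chosen transcripts of H2AZ2 and MACROH2A1 held neither hexamer in that window, which says only that these letters are absent there.

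H2AX was the only one of the 7 whose transcript also held the histone stem-loop. The element lay 1044 bases before the annotated end, so the listed H2AX transcript runs through it to the downstream poly(A) signal. Any H2AX RNA that ends at the stem-loop may be missed by oligo-dT priming, so the H2AX values may leave it out. The stem-loop was found in 24 of the 57 replication-dependent genes and in 0.148% of the other protein-coding genes. The H2AX element, in capitals, is shown beside those of the replication-dependent genes with the highest mean TPM among those that held it.
H2AX: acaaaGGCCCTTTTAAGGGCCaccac
H2AC25: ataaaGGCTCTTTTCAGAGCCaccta
H4C5: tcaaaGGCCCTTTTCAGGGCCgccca
The reference transcripts of H2AX and H1-10 have a single exon, as do those of 49 of the 57 replication-dependent genes, while the reference transcripts of the other 5 variant genes have 2 to 8 introns.

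Promoters were compared through the CCAAT box, searched as CCAAT and ATTGG so that both strands are covered, in the RefSeq windows of 300 bases around each start (GRCh38.p14). All 7 genes matched a window. The letters occurred 4 times each at H2AX, H2AZ2 and H3-3B, 3 times at H2AZ1 and 1 time at H3-3A, and were absent at H1-10 and MACROH2A1. That is 5 of 7 promoters, against 35.7% of 27305 promoters in the table and 46 of 54 promoters of replication-dependent histones. A match is a description of the letters and not evidence of binding.

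The genes also fall into pairs whose products are the same or nearly so. Over the coding sequence, H3-3A and H3-3B differed at 88 of 411 bases, yet 0 of the 136 encoded residues differed. H2AZ1 and H2AZ2 differed at 76 of 387 bases and at 3 of 128 residues. The first 60 coding bases show how the pairs can be separated by reads, with bases that differ from the first sequence of each set in capitals.
H3-3A: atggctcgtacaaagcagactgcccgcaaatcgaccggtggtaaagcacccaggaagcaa
H3-3B: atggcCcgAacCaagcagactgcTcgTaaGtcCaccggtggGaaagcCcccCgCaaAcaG
H3P6: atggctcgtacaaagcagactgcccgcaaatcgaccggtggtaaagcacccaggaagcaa
H2AZ1: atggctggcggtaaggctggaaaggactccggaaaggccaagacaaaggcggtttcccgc
H2AZ2: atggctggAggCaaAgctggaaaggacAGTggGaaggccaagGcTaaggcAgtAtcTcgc
H3P6 is a processed pseudogene on chromosome 2 (174719908 to 174720318), and its 411 annotated bases were identical to the H3-3A coding sequence. Reads that lie within the coding part can therefore belong to either, and the H3-3A values are uncertain by that amount. H3P6 itself was listed on 0 and 3 reads in the SNHG26 libraries of day 2 and day 3 and on 1 and 3 reads in the control libraries. H3P28, a pseudogene less like H3-3A (85.2% identity), was listed on 1 read in the day 2 library of the SNHG26 guides and on 0 in the others.

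Values are TPM, a read count scaled by gene length and library total. In the deposited table the listed length is the whole gene with its introns. The H2AX values came out as whole reads when each read was divided by the span of a transcript. Such spans include introns, so genes with long spans are listed low. In the libraries of the SNHG26 guides on day 2 and day 3, 1 read on 1 kb of span was worth 7.29 and 6.53 TPM, and in those of the control guides 8.03 and 6.72 TPM. The reads assigned to listed genes came to at most 947338 to 1220265 in a library, and any other reads are not in this bound. For levels across genes, TPM was therefore turned into estimated reads on the span of 1 reference transcript and divided by the length of its mRNA. For H2AX the values came out as whole reads. For the other expressed variants, which have several transcripts, they are estimates.

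The targeted gene SNHG26 was listed at 0 and 0.933 TPM with its guides and at 2.98 and 4.03 TPM with control guides. That is the labelled direction, but the log2 difference of -1.69 did not pass (limma adjusted p of 0.935). SNHG26 rested on at most 0 and 8.56 reads with its guides and 22.2 and 35.9 reads with control guides. Of 10 markers of primed stem cells, 8 had a value, and their summed level was 1654 and 1799 TPM with SNHG26 guides and 1777 and 1898 TPM with control guides. ZIC2 was listed at 0. POU5F1, a defining factor, stood at 1050 and 1212 TPM with SNHG26 guides and at 1068 and 1175 TPM with control guides. Fibroblast markers summed to 7.95 and 8.17 TPM against 10.7 and 11.9 TPM, from 3 of 6 names. Markers of amnion and trophectoderm reached 1.29 TPM in sum and those of mesendoderm 1.98 TPM, each in the day 3 control library. Only 1 of 5 and 1 of 6 names had a value, so these sums say little about the whole sets. EOMES was listed at 0, and 0 of 4 neuroectoderm names were analysed here. The part of these markers in the results was not tested.

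H2AZ1 was by far the most abundant of the 7. It encodes the main form of H2A.Z and lies on chromosome 4 (99948086 to 99950355, minus strand, GRCh38). It was listed at 4565 and 4246 TPM with SNHG26 guides on day 2 and day 3, and at 4122 and 3156 TPM with control guides. Both SNHG26 libraries lay above both control libraries, and the day 3 control library was the lowest of the 4. Its estimated level was 1090 to 1507 reads per kb of mRNA, and it took 0.421% of all listed TPM on average.

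H3-3B came next. It lies on chromosome 17 (75776434 to 75785893, minus strand) and is 1 of the genes that encode H3.3. It was listed at 659.3 and 582.9 TPM with SNHG26 guides and at 582.9 and 593.8 TPM with control guides. The arms overlapped, and the day 2 library of the SNHG26 guides was the highest. The estimated level was 89.8 to 111.9 reads per kb of mRNA, below H2AZ1 in every library. The listed gene overlaps UNK on the plus strand by 1088 bases, and whether counting used strand is not given in the sources used here.

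H2AZ2, the other H2A.Z gene, lies on chromosome 7 (44826791 to 44848087, minus strand). It was listed at 17.5 and 21.0 TPM with SNHG26 guides and at 22.9 and 21.2 TPM with control guides. Both SNHG26 libraries lay below both control libraries, though on day 3 the arms were nearly level. The estimated level was 44.1 to 59.1 reads per kb of mRNA.

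H3-3A, on chromosome 1 (226061851 to 226072019, plus strand), encodes the same H3.3 protein as H3-3B. It was listed at 22.7 and 12.2 TPM with SNHG26 guides and at 22.3 and 16.4 TPM with control guides. The day 2 libraries of both arms lay above both day 3 libraries, while the arms overlapped. The estimated level was 11.5 to 19.1 reads per kb of mRNA.

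H2AX lies on chromosome 11 (119093874 to 119095465, minus strand). It was listed at 59.5 and 41.0 TPM with SNHG26 guides and at 30.4 and 16.9 TPM with control guides. These values equal 13 and 10 reads in the SNHG26 libraries and 6 and 4 reads in the control libraries. In the day 2 control library, 4 of the 6 reads fell on the listed span of 1592 bases and 2 on a span of 1571 bases, that of a second, spliced transcript. Both SNHG26 libraries lay above both control libraries.

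MACROH2A1, on chromosome 5 (135334381 to 135399914, minus strand), has the longest span of the 7, with 65534 bases. It was listed at 1.64 and 0.906 TPM with SNHG26 guides and at 1.81 and 1.52 TPM with control guides. These values correspond to at most 14.8 and 9.09 reads against 14.8 and 14.9 reads. The day 3 library of the SNHG26 guides was the lowest, and the arms overlapped.

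By estimated reads per kb of mRNA, the order was H2AZ1, H3-3B, H2AZ2, H3-3A, then H2AX and MACROH2A1, then H1-10. The ranges over libraries of the first 4 did not overlap. H2AX, at 2.48 to 8.05 reads per kb, and MACROH2A1, at 3.26 to 5.33, overlapped and could not be ordered. The estimate depends on the transcript chosen. With the median span and mRNA length of all protein-coding transcripts, H3-3B stood at 165.0 to 205.6 reads per kb. The first 4 kept their order. It also depends on the division by mRNA length, and whether that division suits nanopore reads was not tested. Before the division, H3-3B had 242.8 to 302.6 estimated reads on its reference transcript and H2AZ2 had 33.2 to 44.4. Their ratio was larger than per kb, and the first 4 again kept their order.

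H1-10 was listed at 0 in all 4 libraries. It lies on chromosome 3 (129314771 to 129316286, minus strand) and encodes a linker histone made outside S phase. On its span a count of 0 allows up to 14.4 and 12.9 TPM in the SNHG26 libraries and up to 15.9 and 13.3 TPM in those of the control guides (a limit of 3 reads, counting error only). The 895 bases at its 5′ side overlap the start of the long non-coding gene H1-10-AS1 on the plus strand, and its 3′ end lies outside the overlap, and H1-10-AS1 was listed at 2.29 and 0 TPM with SNHG26 guides and at 9.57 and 3.57 TPM with control guides. Of 13693 protein-coding genes, 1873 were listed at 0 throughout. Such a 0 can be a failed estimate or a level too low for this depth, and which held for H1-10 was not tested. Whether reads of H1-10 were given to the overlapping gene was not tested.

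**Figure D1:**
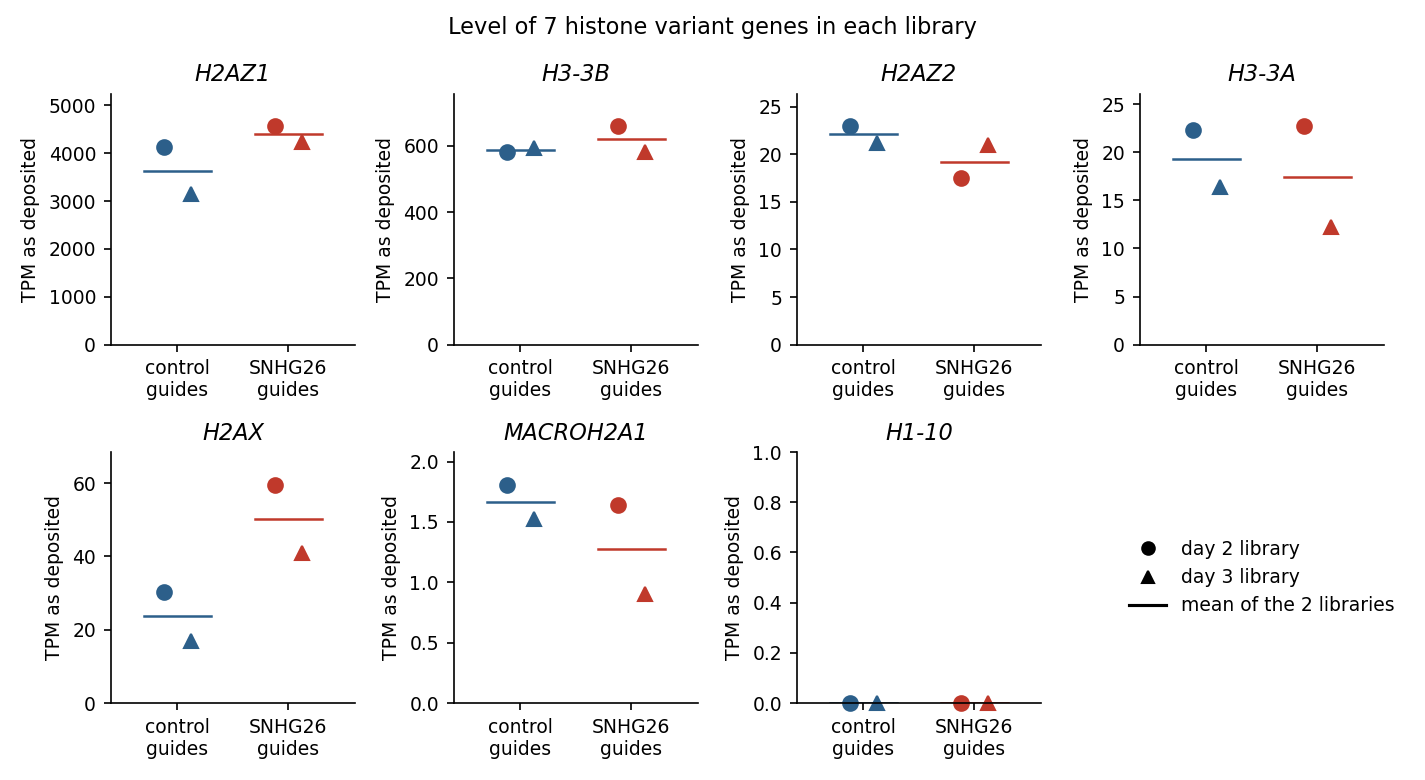
Level of each of the 7 genes as deposited TPM (vertical axes, each from 0), with circles for the day 2 and triangles for the day 3 library and lines for the mean of the 2 libraries of an arm. H2AX and H2AZ1 lay higher and H2AZ2 lower in both libraries of the SNHG26 guides, and H1-10 was listed at 0 throughout.

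The comparison between guide arms asked whether repression of SNHG26 changed the supply of variant histone mRNA. The largest ratio between arms was that of H2AX, which averaged 50.3 ± 13.1 TPM with SNHG26 guides and 23.6 ± 9.57 TPM with control guides. The ratio was 1.96 on day 2 and 2.43 on day 3. H2AZ1 averaged 4405 ± 225.5 TPM and 3639 ± 683.1 TPM, with ratios of 1.11 and 1.35. H3-3B averaged 621.1 ± 54.0 TPM and 588.3 ± 7.77 TPM, a difference smaller than the spread within the SNHG26 arm.

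Of the 7 genes, 6 averaged 1 TPM or more and were tested, and 0 passed a limma adjusted p of 0.05 (0% of all 8274 genes tested passed). An unadjusted p under 0.05 was reached by 0 of the 6 and by 4.07% of all genes. Differences on log2(TPM + 1) come out too small for genes of low level. H2AX differed by 1.09 (SE 0.41), with a limma adjusted p of 0.935 and an unadjusted p of 0.0538. H2AZ1 differed by 0.29 (SE 0.16), with the same limma adjusted p and an unadjusted p of 0.141. The other log2 differences were 0.08 (SE 0.14) for H3-3B, -0.18 (SE 0.42) for H3-3A, -0.19 (SE 0.27) for H2AZ2 and -0.25 (SE 0.50) for MACROH2A1, with limma adjusted p-values of at least 0.968. The median over the 6 was -0.05, beside 0.04 over all genes tested.

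Both libraries of the SNHG26 guides lay above both control libraries for 2 of the 6 genes, H2AX and H2AZ1, where 16.1% of all genes tested did so. They lay below for 1 of the 6, H2AZ2, where 13.2% of all genes did so. The sign was the same on both days for 4 of the 6 genes, against 46.5% of all genes. These counts were not tested against the background.

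**Figure D2:**
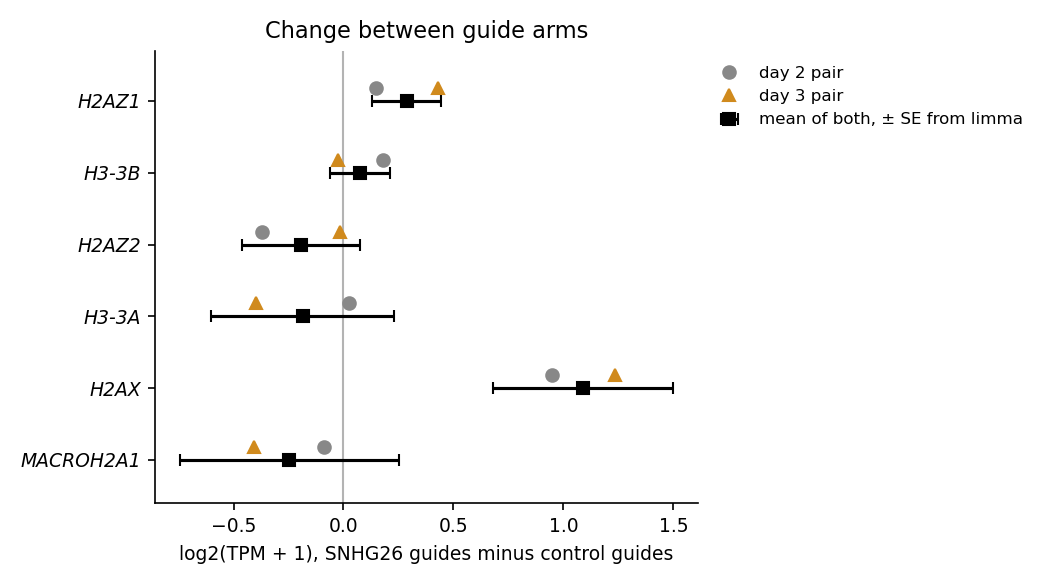
Difference in log2(TPM + 1) between guide arms (horizontal axis) for the 6 tested genes, with circles for the day 2 pair of libraries, triangles for the day 3 pair, and squares with bars for the mean ± SE from limma. H2AX lay at 0.95 and 1.23, farthest from 0, and H3-3B and H3-3A took opposite signs on the 2 days.

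Reads limit what the H2AX values can show. With 13 reads, the day 2 SNHG26 library has an exact Poisson interval (95%) of 31.7 to 101.8 TPM, and with 10 reads the day 3 library has one of 19.7 to 75.4 TPM. In the control libraries the intervals were 11.1 to 65.9 TPM on day 2 and 4.60 to 43.2 TPM on day 3. The intervals of the arms overlapped on each day. They cover counting error only, since amplified reads without molecular identifiers are not independent molecules.

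**Figure D3:**
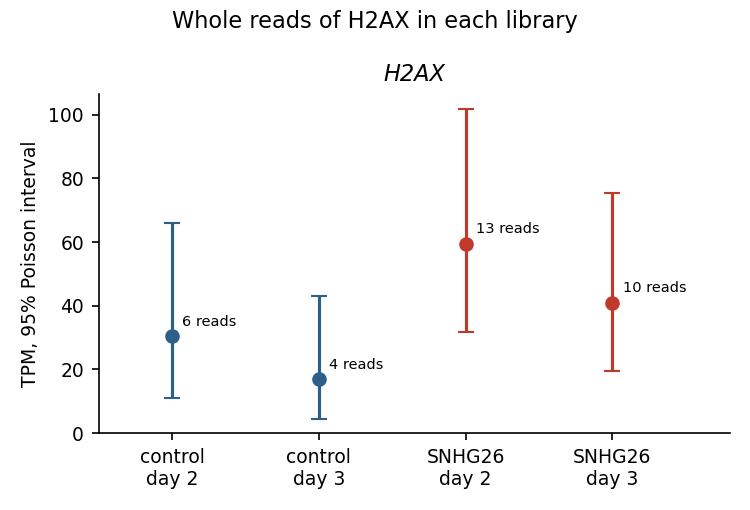
TPM of H2AX (vertical axis) in each library (horizontal axis), with the number of reads behind each point and bars for the 95% exact Poisson interval. H2AX rested on 4 to 13 reads, and the intervals of all 4 libraries overlapped.

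The share of a pair taken by each gene was compared within libraries, where library scaling cancels. On the deposited TPM scale, H3-3A made up 3.33% and 2.05% of H3-3A plus H3-3B with SNHG26 guides and 3.68% and 2.69% with control guides. The arm means differed by -0.49 percentage points, with p = 0.667 (exact permutation test, two-sided). TPM here depends on genomic span, so these are not shares of H3.3 mRNA. Per kb of mRNA, H3-3A was estimated at 11.5 to 19.1 reads and H3-3B at 89.8 to 111.9 reads. H2AZ1 made up 99.6% and 99.5% of H2AZ1 plus H2AZ2 with SNHG26 guides and 99.4% and 99.3% with control guides. The difference was 0.174 percentage points, with p = 0.333 in the exact two-sided permutation test, the smallest p that 2 libraries against 2 allow. Multiplied by the listed span, which gives at most the reads of each gene, the H2AZ1 share was 96.1% ± 0.677 against 94.6% ± 0.689 (SD, n = 2). On this scale H2AZ2 had at most 51.1 to 68.4 reads, beside 33.2 to 44.4 estimated on its reference transcript. Where 1 gene of a pair dominates, its share says little about the other gene's own level.

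Between day 2 and day 3 of doxycycline, H3-3A, H2AX, MACROH2A1 and H2AZ1 were lower on day 3 in both arms. H3-3A went from 22.7 to 12.2 TPM with SNHG26 guides and from 22.3 to 16.4 TPM with control guides. H2AX went from 59.5 to 41.0 TPM and from 30.4 to 16.9 TPM. H2AZ2 and H3-3B moved in opposite directions in the 2 arms.

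None of these differences passed. Of the 6 genes 0 had a limma adjusted p under 0.05 (0.0363% of all genes did) and 0 had an unadjusted p under 0.05 (6.61% of all genes did). The log2 difference, day 3 minus day 2, was -0.63 (SE 0.26) for H3-3A, with a limma adjusted p of 0.760 and an unadjusted p of 0.0725. It was -0.67 (SE 0.59) for H2AX, -0.31 (SE 0.44) for MACROH2A1, -0.24 (SE 0.18) for H2AZ1, -0.08 (SE 0.13) for H3-3B and 0.07 (SE 0.25) for H2AZ2. The median over the 6 genes was -0.28, beside 0.01 over all genes tested. Both day 3 libraries lay below both day 2 libraries for 2 of the 6, H3-3A and MACROH2A1, where 18.4% of all genes did so.

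**Figure D4:**
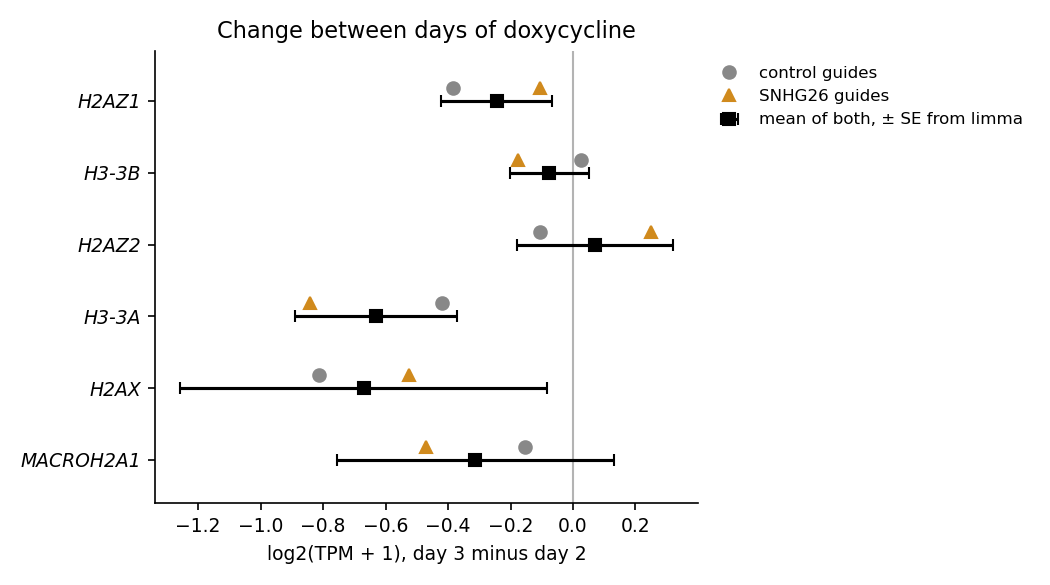
Difference in log2(TPM + 1), day 3 minus day 2 (horizontal axis), for the 6 tested genes, with circles for control guides, triangles for SNHG26 guides, and squares with bars for the mean ± SE from limma. H3-3A lay at -0.42 and -0.84, and H2AZ2 and H3-3B took opposite signs in the arms.

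The same fit was used to ask if the guide difference was unequal on the 2 days. For 0 of the 6 genes did it pass an adjusted or an unadjusted limma p of 0.05, where 0.0967% and 3.52% of all genes did. The differences, day 3 minus day 2 of the guide change, ran from -0.42 (SE 0.82) for H3-3A to 0.36 (SE 0.53) for H2AZ2. The limma adjusted p was 0.999 for each. These contrasts use the same 4 libraries as the guide and day contrasts.

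Other histone genes outside the replication-dependent set give context, and 5 of the 22 names on that list were analysed here. Between the guide arms 0 of the 4 tested passed in either direction, with a median log2 difference of 0.15. H2AJ, an H2A variant, stood at 235.2 and 400.3 TPM with SNHG26 guides and at 233.2 and 238.3 TPM with control guides, so only 1 library stood apart. CENPA, the centromeric H3, had a mean of 3.82 TPM and a guide difference of -0.09 (SE 0.46). MACROH2A2, the other macroH2A gene, was below the filter, with 1.07 and 0.110 TPM against 0.270 and 0.113 TPM.

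Deposition factors and chaperones place these histones on DNA. Of 50 listed genes 42 were tested, and 0 passed in either direction between the guide arms or between the days. Between the guide arms 7 of the 42 were higher and 7 lower in both libraries, close to the 16.1% and 13.2% of all genes. The median log2 difference was -0.05, beside 0.04 over all genes. The medians by group were 0.12 for the factors of H3.3 (6 tested), 0.05 for those of H2A.Z (10 tested) and -0.20 for those of H2AX (9 tested). Replication-coupled and general chaperones (13 tested) had a median of -0.0085 and the factors of CENP-A (4 tested) one of -0.28.

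NPM1, an abundant nucleolar chaperone, had the highest mean of the list and was at 404.4 and 450.8 TPM with SNHG26 guides and 382.2 and 418.6 TPM with control guides, a log2 difference of 0.09 (SE 0.15). SET, a chaperone that also inhibits phosphatase 2A, differed by -0.17 (SE 0.21), and ZNHIT1, a subunit of the SRCAP complex that deposits H2A.Z, by -0.22 (SE 0.30). CABIN1, a partner of HIRA in H3.3 deposition, was at 10.6 and 18.4 TPM with SNHG26 guides and 23.0 and 37.6 TPM with control guides. Its log2 difference was -1.02 (SE 0.43), with a limma adjusted p of 0.935 and an unadjusted p of 0.0748. Among genes of this list above 20 TPM it also had the largest day difference that was positive in both arms, at 0.71 (SE 0.56), which did not pass. Between the days, RUVBL2, an ATPase of the H2A.Z remodellers, went from 41.8 to 25.8 TPM with SNHG26 guides and from 51.5 to 20.3 TPM with control guides. Its day difference was -0.99 (SE 0.25), with a limma adjusted p of 0.566 and an unadjusted p of 0.0178. Of the 42 tested, 3 had an unadjusted limma p under 0.05 between the days, beside 6.61% of all genes. In both day 3 libraries 9 lay higher and 5 lower, beside 17.1% and 18.4%. Without the limits on level and direction, the largest day difference was 3.22, for a factor of H3.3. The lowest limma adjusted p of the list was 0.119.

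The replication-dependent histone genes were set beside the variants, though oligo-dT libraries may miss their RNA that ends at the stem-loop. Of 59 such genes 58 were tested, and 0 passed between the guide arms, with 3 of the 58 at an unadjusted p under 0.05 (4.07% of all genes) and a median log2 difference of -0.02. H4C3, the highest, rested on 913 to 1129 reads and differed by 0.19 (SE 0.12). H2AC17 was at 3159 and 2642 TPM with SNHG26 guides and 4091 and 4261 TPM with control guides, a difference of -0.53 (SE 0.12) with a limma adjusted p of 0.755 and an unadjusted p of 0.0109. H1-3, a linker histone, differed by -0.66 (SE 0.25). Among those above 20 TPM on average, H4C16 and H4C4 had the largest differences of one sign on both days: H4C16 was at 17.7 and 63.4 TPM with SNHG26 guides and 0 in both control libraries, and H4C4 was at 18.1 and 0 TPM against 119.6 and 16.7 TPM. Each rested on at most 6 estimated reads in a library, and neither passed (limma adjusted p of 0.273 and 0.935). Of the 58, 20 lay lower and 8 higher in both day 3 libraries, beside 18.4% and 17.1% of all genes, and 0 passed between the days, with 7 of the 58 at an unadjusted p under 0.05 (6.61% of all genes). Among those above 20 TPM, the largest day differences of one sign in both arms were those of H2BC9, higher on day 3 at 205.1 to 339.3 TPM with SNHG26 guides and 104.3 to 247.1 TPM with control guides, and of H3C12, which went from 85.4 and 15.7 TPM on day 2 to 0 in both day 3 libraries. H2BC9 rested on 6 to 24 reads in a library, and H3C12 on at most 4.82 estimated reads. Whether the variants differ from the replication-dependent set was not tested.

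**Figure D5:**
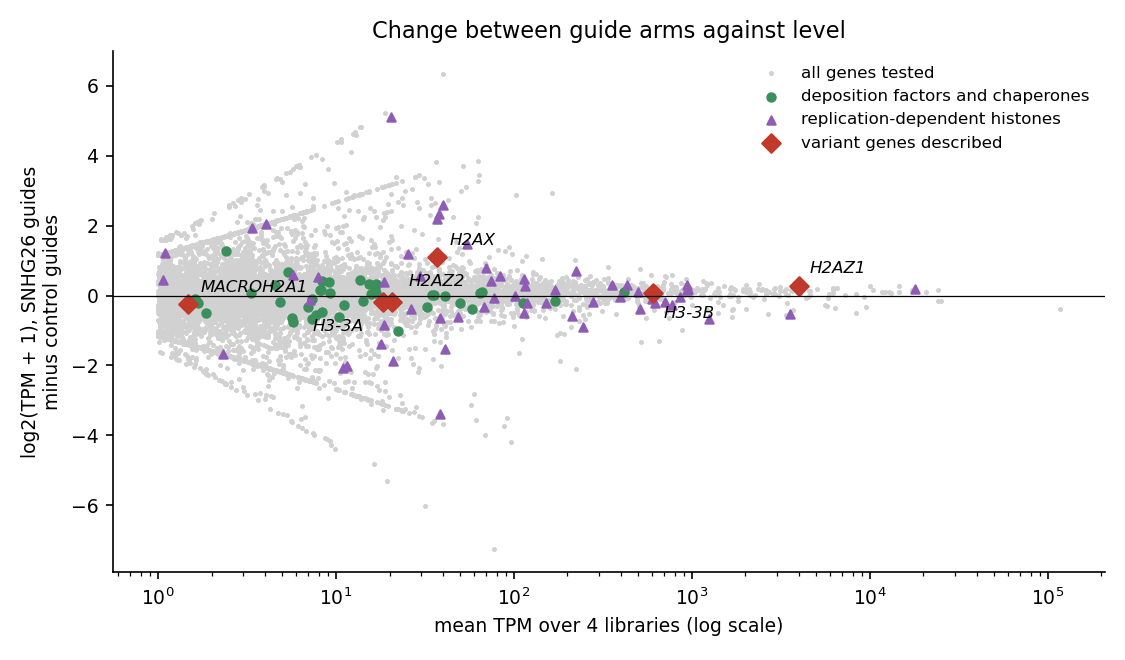
Difference in log2(TPM + 1) between guide arms (vertical axis) against the mean TPM over 4 libraries (horizontal log axis), with grey points for the 8274 genes tested, diamonds for the variant genes, circles for deposition factors and triangles for replication-dependent histones. H2AZ1 and H3-3B lay in the narrow high end, and H2AX lay at 1.09.

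The genes with the most similar pattern were sought among the 1143 other genes that averaged 50 TPM or more, by the largest difference over the 4 libraries in log2(TPM + 1) centred on each gene's mean. For H2AX the nearest were SRSF1 (0.27) and COMMD5 (0.35), and 0 genes lay within 0.1. For H2AZ1 they were KRT18 (0.0459) and CLDN7 (0.0468), with 29 genes within 0.1. H3-3A was nearest to NDUFC2 (0.0832) and H4C5 (0.0905), with 2 genes within 0.1. H3-3B was nearest to TIMM8B (0.0247) and RPP21 (0.041), with 37. H2AZ2 was nearest to HNRNPK (0.0468) and RTL8C (0.0712), with 15, and MACROH2A1 to SNHG25 (0.0425) and HCFC1R1 (0.0469), with 8. MACROH2A1 averaged 1.47 TPM, where log2(TPM + 1) flattens a pattern, so its matches say little. The H2AX pattern rested on 4 to 13 reads in a library.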

How the data were processed

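Per the labels' protocols, oligo-dT primed cDNA was amplified for 14 cycles and sequenced on a nanopore instrument. The authors deposited 1 table of TPM per gene and library. The submitters' processing notes name minimap2 2.24-r1122 and GRCh38, and the counting tool and annotation are not given in the sources used here. For 128 spliced genes with 1 GENCODE 29 transcript at the listed coordinates, 92.2% of 115 values above 0 were whole reads (within 0.0001) when the gene's full span was the length, and 0% when the spliced length was.

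log2(TPM + 1) of the 8274 genes that averaged 1 TPM or more was fitted with limma 3.58.1 in R 4.3.3 (eBayes with trend, Benjamini-Hochberg, threshold 0.05), after a check on simulated data. That check changed only genes with a mean of at least 20 estimated reads, which leaves out H2AX and MACROH2A1. It required the right sign and size of the changes and set no requirement on how many were called. Reference transcripts were the APPRIS principal, best supported and longest ones. Libraries of 1 day shared little deviation from the arm means (r = 0.046 across genes), so the replicate block by day is an alternative only. Members and lists were chosen with earlier results of these data known. Named genes were all members and, per list, the 3 highest and the largest consistent change each way above 20 TPM. A gene that this rule names is not reported here.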

Additional observations from a re-analysis of the deposited data

How the results depend on the processing

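No variant gene passed a limma adjusted p of 0.05 under any alternative run that kept all 4 libraries. Of 261 recomputed values 249 kept their sign and 12 reversed, 11 of them with 1 library left out. The 261 include runs that changed only the filter, the trend or the block. Such runs leave the difference itself unchanged, so its sign could not reverse there. H2AX stayed higher with SNHG26 guides, from 0.97 to 1.12 across the alternatives that kept all libraries and from 0.68 to 1.497 when 1 library was left out. H3-3B between the arms reversed to -0.0138 when TPM was rescaled without mitochondrial genes. With day as a replicate block, H2AX had the same difference of 1.09 with a limma adjusted p of 0.908, and the block changed no call among the variant genes. When each library was left out in turn, leaving a lone library assumed to vary like the others, the change between arms ran from -0.61 to 0.24 for H3-3A and from -0.0132 to 0.16 for H3-3B. It kept its sign for H2AZ1, from 0.095 to 0.48, for H2AZ2, from -0.32 to -0.071, and for MACROH2A1, from -0.48 to -0.011. For H2AX, H2AZ1 and H2AZ2 the arms did not overlap, so leaving 1 library out could not reverse the sign. Between days the change ran from -0.12 to 0.26 for H2AZ2 and from -0.16 to 0.0136 for H3-3B. It kept its sign for H2AX, from -1.29 to -0.053, for H2AZ1, from -0.46 to -0.031, for H3-3A, from -0.83 to -0.43, and for MACROH2A1, from -0.52 to -0.11. For H3-3A and MACROH2A1 the days did not overlap, so this sign could not reverse either. The difference between days in the guide change ran from -1.47 to 2.05 for H2AX, from -0.25 to 0.81 for H2AZ1, from -1.24 to 0.39 for H3-3A and from -0.88 to 0.24 for MACROH2A1. It kept its sign for H2AZ2, from 0.090 to 0.62, and for H3-3B, from -0.35 to -0.054. The difference in the H3-3A share ran from -1.13 to 0.145 percentage points and that in the H2AZ1 share from 0.117 to 0.232. H3-3A lost its negative sign between arms without the day 3 SNHG26 library (0.24) or the day 2 control library (0.025).

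Over all genes, 0 were called between arms under each alternative (337 at an unadjusted p under 0.05 in the fit reported). The 3 genes called between days stayed 3 with the filter at 5 TPM and under median ratio scaling, and became 0 under every other alternative, the replicate block included. The 8 called for a guide change that differs between days became 14 with a pseudocount of 0.1, 13 with the filter at 5 TPM and 7 under quantile or median ratio scaling. They became 0 under every other alternative, the replicate block included. Both counts were 0 with any library left out. The filter on a mean of at least 20 estimated reads, with and without the replicate block, was chosen after seeing the data and called 0 genes in each comparison among 2855. It leaves out H2AX and MACROH2A1, which have fewer reads, and a mean of at least 50 TPM leaves out H2AX, H2AZ2, H3-3A and MACROH2A1. The cause of these shifts was not tested. H2AX and MACROH2A1 rested on the fewest reads among the tested variant genes.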
